A study of Mus musculus with 6 samples.

Results

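Polycomb complexes are assemblies of chromatin proteins that keep developmental genes silent. Polycomb repressive complex 2 (PRC2) methylates the tail of histone H3, and Polycomb repressive complex 1 (PRC1) attaches ubiquitin to histone H2A and compacts chromatin. In embryonic stem cells both occupy the CpG-rich promoters of lineage regulators, genes that are off but can be switched on at differentiation. The genes described here are 33 subunits of the complexes, 11 of PRC2 and 22 of PRC1, taken as a list of gene symbols. Of the 33, 32 had a probe set of their own on the arrays, among 19937 genes tested. The exception was Cbx6, whose probe set is annotated to several genes.

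Expression was measured on 6 one-colour Affymetrix arrays, 3 of cells given CHIR99021 and 3 of cells given XAV939, each for 24 h in medium with serum and the cytokine LIF. CHIR99021 inhibits the kinase GSK3 and so stabilises β-catenin, the effector of Wnt signalling, whereas XAV939 inhibits tankyrase and lowers β-catenin. CHIR99021 was used at 3 µM. For XAV939 the sample labels give 3 µM and the treatment protocol 1 µM. All arrays came from 1 V6.5 mouse embryonic stem cell line with a biotin and 3xFLAG tag knocked into Ctnnb1, the β-catenin gene, and with the biotin ligase BirA, so both groups carry the tagged allele and the ligase. The cells were kept on feeder cells from DR4 mice. No untreated arrays were analysed, so a difference cannot be assigned to either compound, and the labels do not say whether replicates were separate cultures, so that p-values measure only the spread between these arrays. All differences below are CHIR99021 minus XAV939 in log2 units.

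The arrays had closely similar distributions, with median gene levels between 6.04 and 6.10 in log2 units. XAV939 replicate 1 stood apart on the second principal component, which held 17.5% of the variance. All 5 genes checked as Wnt targets (Axin2, Sp5, Cdx1, Cdx2 and Lef1) rose, by 0.69 to 1.91. The 10 pluripotent cell markers had mean levels from 9.06 to 12.58.

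Of the 32 Polycomb genes, 4 fell and 2 rose with CHIR99021 in limma's moderated test at an adjusted p of 0.05 over all genes, and 26 did not pass. Phc1, a PRC1 subunit that polymerises through its SAM domain, differed most, followed by the PRC2 accessory genes Phf19 and Jarid2 and by Kdm2b, which recruits a variant PRC1 to unmethylated CpG islands. The genes that rose, Rbbp7 and Yaf2, had smaller differences of 0.25 and 0.20. The count of 2 that rose became 1 when CHIR99021 replicate 3 or XAV939 replicate 1 was set aside and 0 when CHIR99021 replicate 1 or 2 was, while 4 or 5 fell whichever array was left out. Yaf2 lost its call on leaving out any array. The count stayed at 2 without XAV939 replicate 2 only because Suz12 was then called, and without XAV939 replicate 3 only because Pcgf5 was. The 6 called genes are 18.8% of the Polycomb genes, where 9.65% of all genes tested were called. These shares are not at like level, since 29 of the 32 had a mean level higher than 6.07, the all-gene median. With genes below the 50th percentile removed, 971 of 9969 genes were called higher and 794 lower. In that fit 2 Polycomb genes were called higher and 3 lower. The larger share is therefore not shown to be particular to Polycomb genes. By direction, 4.34% of all genes were called lower and 5.31% higher. The median difference of the Polycomb genes was 0.024, against 0.0066 over all genes, and their median absolute difference was 0.11, against 0.062. These medians too are set against genes of every level.

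**Figure D1:**
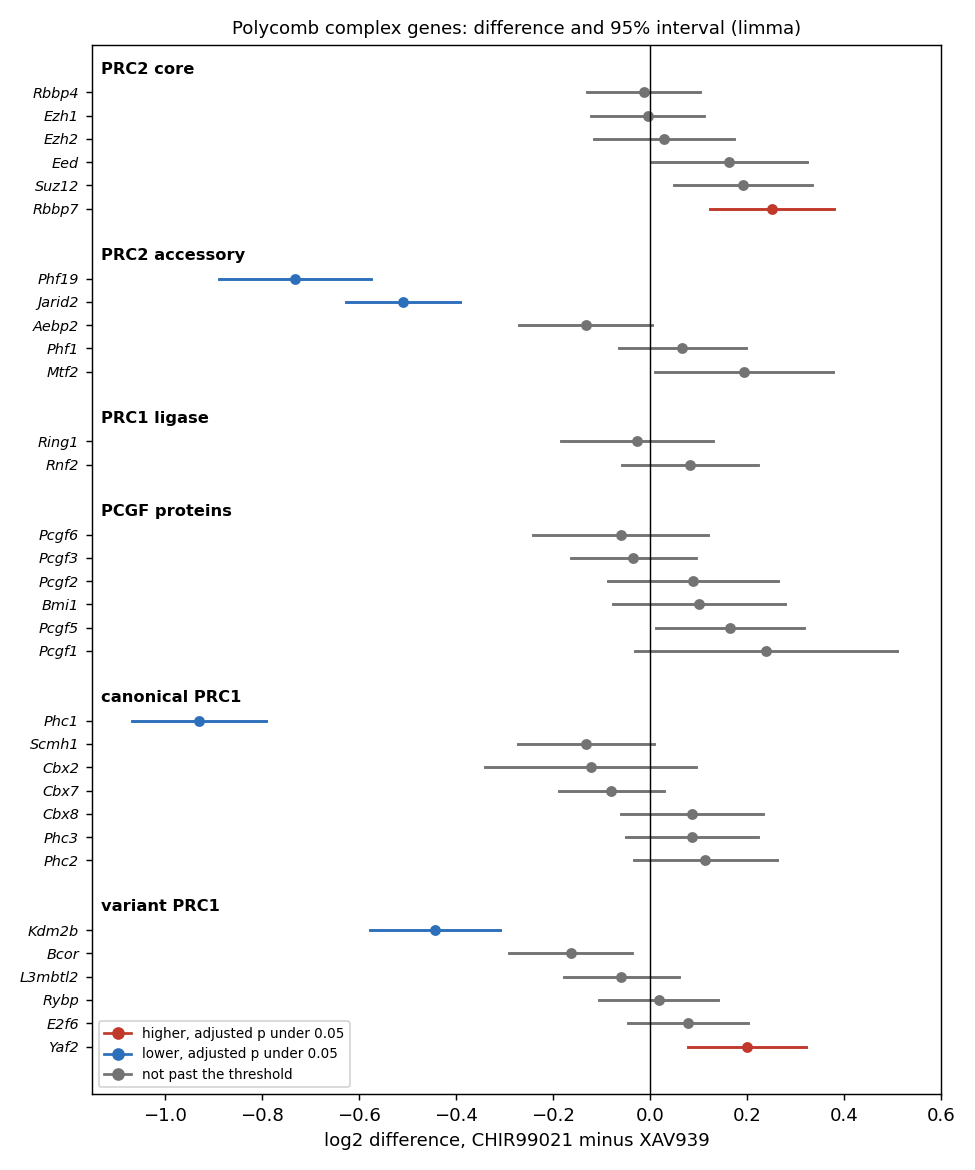
Difference of each of the 32 Polycomb genes with its 95% confidence interval from the limma fit (x axis, log2 units, CHIR99021 minus XAV939), grouped by role in the complexes. Phc1, Phf19, Jarid2 and Kdm2b lie between -0.93 and -0.44, and the 26 genes drawn in grey, not past the threshold, lie between -0.16 and 0.24.

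The promoters of the genes that fell are shown so that their base composition can be compared, each as the 250 bases before the most upstream RefSeq start in build GRCm38.p6, read on the gene's strand from 5′ to 3′. Capitals mark a TCF/LEF core (CTTTGAT or CTTTGAA) or an E2F core (GCGGGAA), searched on both strands. TCF/LEF proteins carry β-catenin to DNA, and E2F proteins regulate genes of the cell cycle. The windows lie at chr6:122340228-122340477 on the minus strand for Phc1, chr2:34913977-34914226 on the minus strand for Phf19, chr13:44730524-44730773 on the plus strand for Jarid2 and chr5:122989100-122989349 on the minus strand for Kdm2b.
Phc1: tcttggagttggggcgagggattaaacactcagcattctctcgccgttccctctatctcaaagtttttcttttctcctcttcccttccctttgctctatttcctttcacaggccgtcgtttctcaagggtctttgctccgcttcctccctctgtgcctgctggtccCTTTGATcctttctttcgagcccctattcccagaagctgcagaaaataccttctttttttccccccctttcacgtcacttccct
Phf19: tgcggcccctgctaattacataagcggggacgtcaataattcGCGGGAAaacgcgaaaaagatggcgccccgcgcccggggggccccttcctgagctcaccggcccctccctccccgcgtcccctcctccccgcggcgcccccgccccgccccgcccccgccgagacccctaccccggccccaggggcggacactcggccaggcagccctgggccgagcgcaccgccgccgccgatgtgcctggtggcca
Jarid2: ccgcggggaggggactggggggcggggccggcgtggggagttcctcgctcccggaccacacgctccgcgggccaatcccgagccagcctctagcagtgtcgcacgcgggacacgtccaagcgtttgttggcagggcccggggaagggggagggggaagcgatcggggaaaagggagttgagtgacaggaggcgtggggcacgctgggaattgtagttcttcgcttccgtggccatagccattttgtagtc
Kdm2b: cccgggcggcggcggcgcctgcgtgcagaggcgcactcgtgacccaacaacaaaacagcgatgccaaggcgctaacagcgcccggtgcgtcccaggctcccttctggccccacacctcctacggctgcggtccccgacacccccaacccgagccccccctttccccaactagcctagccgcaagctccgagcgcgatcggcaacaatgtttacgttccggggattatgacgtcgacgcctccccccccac

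The Phc1 window was 49.6% G and C, and those of Kdm2b, Jarid2 and Phf19 were 68%, 67.2% and 75.2%. Of the 33 genes, 29 matched an entry in the RefSeq promoter table, with a median of 66.4% G and C, against 56.4% for promoters of all genes tested that matched. Their median ratio of observed to expected CpG was 0.738, against 0.590. The motif shares that follow are set against another background, all 27025 promoter windows. In those windows the medians were lower, at 52% G and C and a CpG ratio of 0.379. A TCF/LEF core was found in 2 of the 29 windows, those of Phc1 and Suz12, which is 6.9% against 7.69% of 27025 promoter windows of the same length. An E2F core stood in 3, those of Phf19, Scmh1 and Suz12 (10.3% against 3.86%). The GC box GGGCGG, bound by Sp and Klf factors, stood in 20 (69% against 33%), and the E-box CACGTG, bound by Myc and related factors, in 7 (24.1% against 6.04%). GC boxes may overlap the E2F core, the part of base composition in these shares was not tested, and a match describes letters and not a bound site.

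The 6 core genes of PRC2 had 1 member that rose and 5 that did not pass. Ezh2 encodes the main methyltransferase of the complex in dividing cells. Its levels with CHIR99021 were 10.42, 10.44 and 10.33, and with XAV939 10.24, 10.42 and 10.44. The treatments overlapped, the difference was 0.03 ± 0.07 (SE), and its 95% interval of -0.12 to 0.17 holds no change as large as that of any gene that fell. Ezh1, the alternative methyltransferase, differed by -0.0043 ± 0.0522 (interval -0.12 to 0.11).

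Suz12 and Eed encode the scaffold and the subunit that reads the methyl mark. Suz12 was at 10.41, 10.35 and 10.36 with CHIR99021 and at 10.07, 10.30 and 10.17 with XAV939. All 3 CHIR99021 arrays lay above the XAV939 arrays, but the difference of 0.19 ± 0.06 did not pass (limma adjusted p = 0.103). Without XAV939 replicate 2 it was 0.25 with a limma adjusted p of 0.0461. For Eed the levels were 10.19, 10.05 and 9.99 against 9.78, 9.97 and 9.99. They did not overlap, by a narrow margin, and the difference of 0.16 ± 0.07 did not pass either (limma adjusted p = 0.233).

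Rbbp7 and Rbbp4 are histone-binding proteins that PRC2 shares with deacetylase and other complexes. Rbbp7 was at 11.50, 11.54 and 11.43 with CHIR99021 and at 11.16, 11.28 and 11.27 with XAV939. It rose 1.19-fold without overlap (0.25 ± 0.06, limma adjusted p = 0.0192). The call was lost without CHIR99021 replicate 1 or 2 (limma adjusted p = 0.0725 and 0.0982). A further Rbbp7 probe set differed by 0.20 ± 0.06, with a limma adjusted p of 0.182 over all probe sets. In that same fit the main Rbbp7 probe set had a limma adjusted p of 0.0733 and lost its call too. Rbbp4 differed by -0.01 ± 0.05 and did not pass.

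Among the 5 accessory genes of PRC2, 2 fell and 3 did not pass. These subunits form alternative versions of the complex, one with Jarid2 and Aebp2 and one with a Polycomb-like protein, which is Phf1, Mtf2 or Phf19. Jarid2 helps PRC2 bind and stimulates its activity. Its levels were 10.52, 10.50 and 10.46 with CHIR99021 and 10.94, 11.01 and 11.05 with XAV939. The groups were far apart relative to their spread, and Jarid2 fell by 0.51 (SE 0.05), a level 1.42-fold lower, with a limma adjusted p of 1.49e-04. Its partner Aebp2 differed by -0.13 ± 0.06, within overlapping arrays (limma adjusted p = 0.264).

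Phf19 was at 5.42, 5.45 and 5.54 with CHIR99021 and at 6.26, 6.29 and 6.05 with XAV939. It fell by 0.73 (SE 0.07), or 1.66-fold, with a limma adjusted p of 8.85e-05 and no overlap. The mean level of Phf19, 5.84, was below the median of all genes, 6.07, and no detection call was made. Mtf2, the Polycomb-like gene with levels of 10.80, 10.78 and 10.65 against 10.36, 10.62 and 10.67, differed the other way, by 0.19 ± 0.08, and did not pass (limma adjusted p = 0.21). Its lowest CHIR99021 array lay below its highest XAV939 array. Phf1 differed by 0.07 ± 0.06.

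Neither gene for the ubiquitin ligase subunits of PRC1 passed. Ring1 differed by -0.03 ± 0.07 (interval -0.18 to 0.13) and Rnf2, the ligase on which most PRC1 activity in these cells depends, by 0.08 ± 0.06 (interval -0.06 to 0.22). Both sets of arrays overlapped.

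The 6 PCGF genes encode the ligase's partners, each of which defines a type of PRC1. None passed in limma, and 1 of them, Pcgf5, had an unadjusted p under 0.05, where 20.6% of all genes had one. Pcgf5 was at 7.10, 7.10 and 7.16 with CHIR99021 and at 6.85, 6.91 and 7.10 with XAV939. Only XAV939 replicate 3 reached the CHIR99021 range. The difference was 0.16 ± 0.07 (limma adjusted p = 0.202), and without that array it was 0.24 with a limma adjusted p of 0.0468. Pcgf1 had the widest interval, -0.03 to 0.51 around 0.24, with XAV939 arrays spread from 6.28 to 6.83. Pcgf2 and Bmi1, the partners in canonical PRC1, differed by 0.09 ± 0.08 and 0.10 ± 0.08. Pcgf3 and Pcgf6 differed by -0.03 ± 0.06 and -0.06 ± 0.08.

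Canonical PRC1 adds a CBX protein, which reads the mark made by PRC2, and a PHC protein, which links complexes together. Of its 7 measured genes, 1 fell and 6 did not pass. Phc1 was at 9.35, 9.28 and 9.42 with CHIR99021 and at 10.37, 10.25 and 10.21 with XAV939. It fell by 0.93 (SE 0.06), to a level 1.90-fold lower, with a limma adjusted p of 8.45e-06. The gap between its groups was many times the spread within them, and Phc1 ranked 72 by p among the 19937 genes. Its relatives Phc2 and Phc3 had positive differences of 0.11 ± 0.07 and 0.09 ± 0.06 and did not pass. Scmh1, a further SAM domain protein of PRC1, differed by -0.13 ± 0.06 (limma adjusted p = 0.281).

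Cbx7 was at 8.80, 8.84 and 8.82 with CHIR99021 and at 8.89, 8.90 and 8.91 with XAV939. It is the main CBX protein of PRC1 in undifferentiated cells. The arrays did not overlap but the difference was -0.08 ± 0.05 (limma adjusted p = 0.433), with an interval of -0.19 to 0.03. Cbx2 and Cbx8, more prominent after differentiation, differed by -0.12 ± 0.10 and 0.09 ± 0.07. Cbx2 was highest, at 8.40, on XAV939 replicate 1, while the other XAV939 arrays lay within the range of the CHIR99021 arrays.

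Variant PRC1 complexes hold Rybp or Yaf2 in place of a CBX protein. Of the 6 genes of this group, 1 fell, 1 rose and 4 did not pass. Kdm2b was at 7.92, 7.92 and 8.08 with CHIR99021 and at 8.39, 8.42 and 8.44 with XAV939. It fell by 0.44 (SE 0.06), or 1.36-fold, with a limma adjusted p of 8.23e-04. CHIR99021 replicate 3 was the closest of its group to the XAV939 arrays but did not reach them.

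Bcor, which joins Kdm2b in the complex with Pcgf1, was at 6.14, 6.06 and 6.14 with CHIR99021 and 6.20, 6.31 and 6.33 with XAV939. These did not overlap, and the difference of -0.16 ± 0.06 did not pass (limma adjusted p = 0.12). Without XAV939 replicate 1 it was -0.20, with a limma adjusted p of 0.0405. L3mbtl2 and E2f6, subunits of the complex with Pcgf6, differed by -0.06 ± 0.05 and 0.08 ± 0.06.

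Yaf2 was at 7.28, 7.25 and 7.34 with CHIR99021 and at 7.06, 7.06 and 7.16 with XAV939. It rose 1.15-fold (0.20 ± 0.06) with a limma adjusted p of 0.0474. The arrays did not overlap, but the call was lost on leaving out any one of the 6 arrays (limma adjusted p above 0.05 in each case and up to 0.157), on scaling the arrays again and with the replicate number as a block (0.0714). Rybp, its relative, differed by 0.02 ± 0.06 (interval -0.10 to 0.14).

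**Figure D2:**
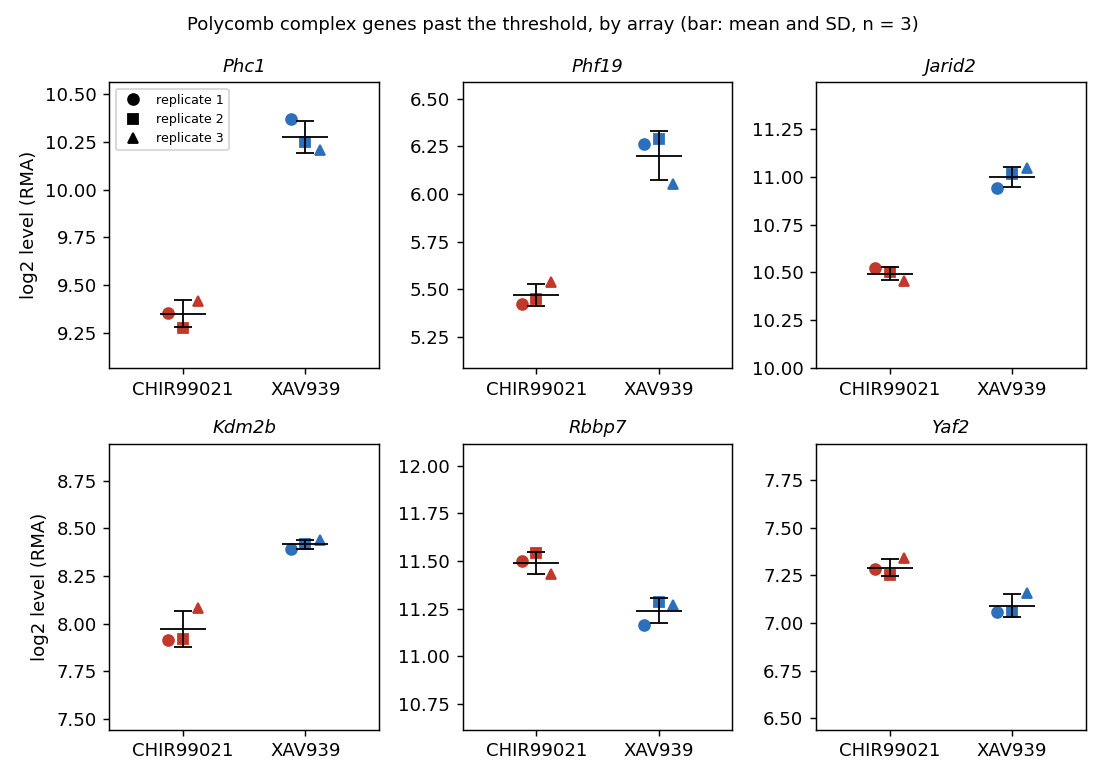
Levels of the 6 Polycomb genes past the threshold on each array (y axis, log2 RMA units, the same span of 1.5 units in every panel), by treatment, with the mean and SD of 3 arrays. The CHIR99021 and XAV939 arrays do not overlap in any panel, and the gap is widest for Phc1, from 9.42 to 10.21.

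Across the group, the calls of Phc1, Phf19, Jarid2 and Kdm2b were kept on leaving out each array in turn, with differences of -0.96 to -0.88, -0.81 to -0.69, -0.54 to -0.49 and -0.50 to -0.41. The treatments did not overlap for 10 of the 32 Polycomb genes (31.2%), 4 with CHIR99021 above and 6 with CHIR99021 below, where 25.1% of all genes did not overlap, 14.1% with CHIR99021 above and 11.0% with CHIR99021 below. An unadjusted p under 0.05 in limma was found for 11 of them (34.4%, where 20.6% of all genes had one). An absolute difference of at least 0.3 was reached by 4 (12.5%), where 6.54% of all genes reached it. None of these shares of all genes is matched to the Polycomb genes for level. By complex, 3 of 11 PRC2 genes and 3 of 21 measured PRC1 genes were called, where 9.65% of all genes were. The difference in share between the complexes was not tested. Mean levels exceeded 6.07, the all-gene median, for 10 of the PRC2 genes and 19 of the PRC1 genes. The 9.65% is therefore not matched to either complex for level.

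The level of a probe set depends on its probes, so levels of different genes are not compared as amounts. The SDs within a treatment had a median of 0.056 with CHIR99021 and 0.091 with XAV939, against 0.061 and 0.071 over all genes. XAV939 replicate 1 was the lowest of its group for 17 of the 32 genes (53.1%, against 36.4% of all genes) and the highest for 10. Among the genes it set lowest were all 6 of variant PRC1, and of the canonical PRC1 genes it was highest for 6 of 7.

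**Figure D3:**
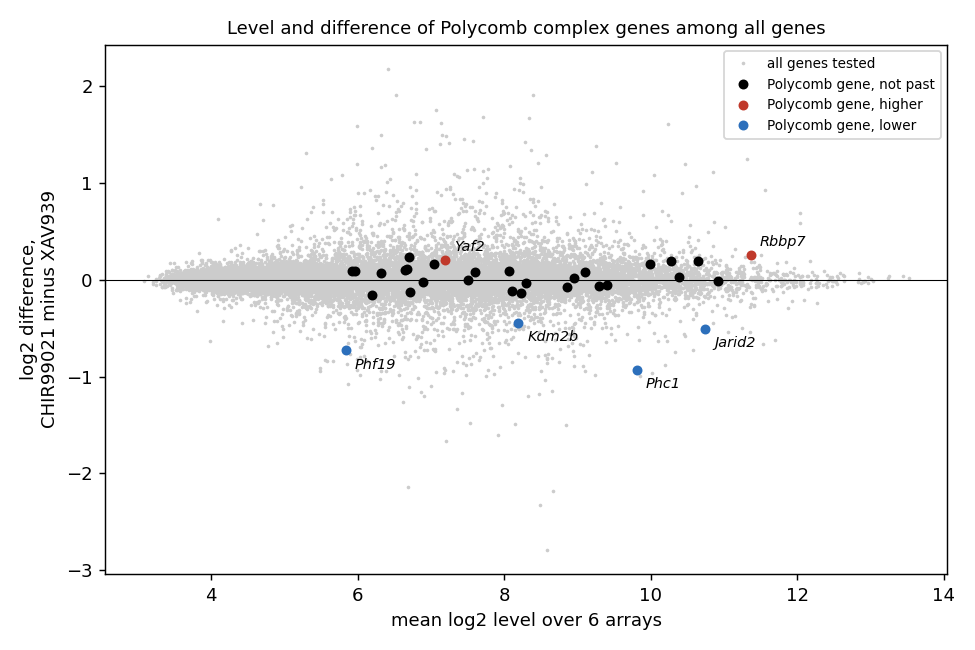
Difference (y axis, log2 units, CHIR99021 minus XAV939) against mean log2 level over 6 arrays (x axis) for 19937 genes in grey, with the Polycomb genes in colour or black. Phc1 and Jarid2 fell at mean levels of 9.81 and 10.75, and Phf19 at 5.84, while most other Polycomb genes lie close to 0.

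Related subunits were then compared within each array, by subtracting the log2 value of one gene from that of its relative. Of 11 pairs listed, 10 could be compared, since Cbx6 had no value of its own. With 3 arrays against 3, an exact two-sided permutation test cannot give a p below 0.1, which is 0.167 after adjustment over the pairs, so no pair could pass. Phc1 minus Phc2 was 2.59 to 2.67 with CHIR99021 and 3.59 to 3.73 with XAV939, a difference of -1.04 (exact p = 0.1). Phc1 minus Phc3 gave -1.02, with the same Phc1 values. Mtf2 minus Phf19 was 5.11 to 5.37 with CHIR99021 and 4.10 to 4.62 with XAV939, a difference of 0.93 in favour of Mtf2. Jarid2 minus Aebp2 differed by -0.38, Rbbp4 minus Rbbp7 by -0.27 and Rybp minus Yaf2 by -0.18. In these 6 pairs the treatments did not overlap, and each holds a gene called above.

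In the other 4 pairs the arrays of the treatments overlapped. Ezh1 minus Ezh2 differed by -0.03 (exact p = 0.6), Ring1 minus Rnf2 by -0.11 (exact p = 0.7), Pcgf2 minus Bmi1 by -0.01 (exact p = 0.9) and Cbx7 minus Cbx2 by 0.04 (exact p = 0.8).

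**Figure D4:**
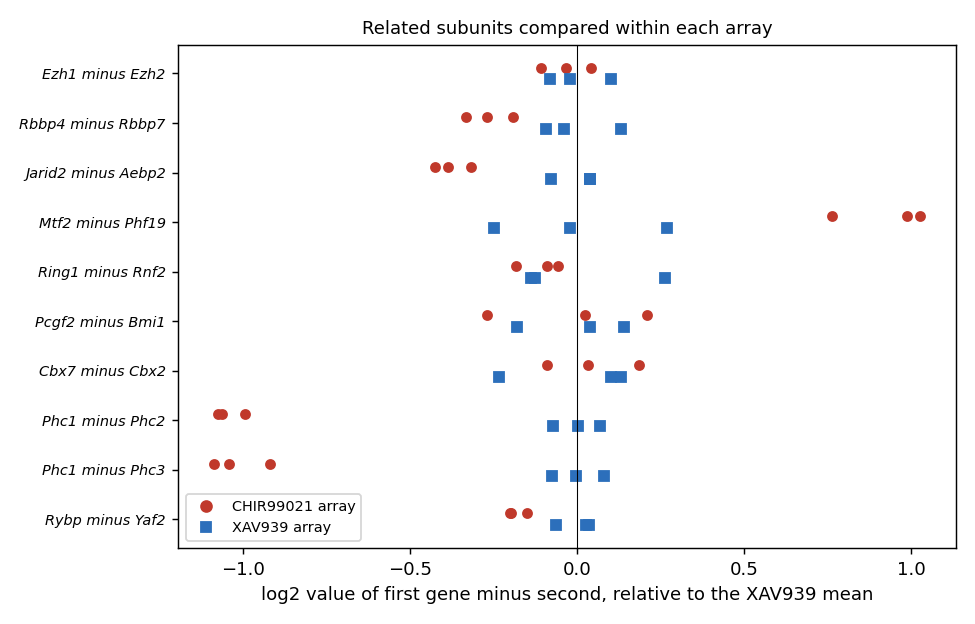
Log2 value of the first gene minus the second on each array, shifted so that the XAV939 mean of each pair is 0 (x axis, log2 units), for 10 pairs of related subunits. The CHIR99021 arrays lie apart from the XAV939 arrays in 6 pairs, at a mean of -1.04 for Phc1 minus Phc2 and 0.93 for Mtf2 minus Phf19.

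Further genes of the Polycomb system were taken from lists. Of 23 measured partners outside the 33 genes, 2 fell, none rose and 21 did not pass, with a median difference of -0.0065. The share called, 8.70%, was near the 9.65% of all genes. Of the 23 partners, 18 had a mean level higher than the all-gene median, so the shares are not matched for level. In limma 7 of them (30.4%) had an unadjusted p under 0.05, where 20.6% of all genes had one. Sfmbt2, a relative of the fly Polycomb group protein Sfmbt, fell by 0.40 (SE 0.06, limma adjusted p = 0.00258). Mga, the scaffold of the PRC1 complex with Pcgf6, fell by 0.24 (SE 0.06, limma adjusted p = 0.03), a call that held on leaving out XAV939 replicate 1 and on leaving out no other array (up to 0.117). Without XAV939 replicate 1 the count of partners that fell was 4, and without CHIR99021 replicate 2 or XAV939 replicate 2 or 3 it was 1.

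Among 11 genes for enzymes that remove ubiquitin from histone H2A and for their cofactors, 2 fell, none rose and 9 did not pass (18.2% called, where 9.65% of all genes were), and 4 (36.4%) had an unadjusted p under 0.05 in limma, where 20.6% of all genes had one. Of the 11, 10 lay above the median level of all genes, so these shares are not compared at like level. Foxk1, a forkhead protein bound to the deubiquitinase Bap1, fell by 0.26 (SE 0.06, limma adjusted p = 0.0175). Asxl1, the cofactor of Bap1, fell by 0.28 (SE 0.07, limma adjusted p = 0.036). Bap1 itself differed by -0.03 ± 0.05. Foxk1 lost its call without CHIR99021 replicate 1 or XAV939 replicate 3 and Asxl1 in all cases of leaving out an array but that of CHIR99021 replicate 3 (limma adjusted p up to 0.0805 and 0.152). With replicate 1 of the CHIR99021 arrays or replicate 3 of the XAV939 arrays set aside the count that fell was 0, and with replicate 2 of either treatment set aside it was 1.

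Of 18 genes for histone enzymes that oppose Polycomb, the demethylases of its methyl mark and the methyltransferase complexes of active promoters and enhancers, 2 fell, 1 rose and 15 did not pass (16.7% called, where 9.65% of all genes were). All 18 lay above the median level of all genes, so the 9.65% is not a share of genes at like level. Kmt2c, a methyltransferase of enhancers, was at 6.54, 6.48 and 6.41 with CHIR99021 and at 7.01, 7.10 and 7.01 with XAV939. It fell by 0.57 (SE 0.06, limma adjusted p = 1.15e-04) with no overlap. Kdm6a, a demethylase that removes the mark set by PRC2, fell by 0.36 (SE 0.07, limma adjusted p = 0.0084). Ncoa6, a subunit shared by the complexes with Kmt2c, rose by 0.20 (SE 0.05, limma adjusted p = 0.0327), a call lost on leaving out any array other than XAV939 replicate 1 (up to 0.152).

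Of 33 measured textbook targets of Polycomb in embryonic stem cells, 2 rose, 2 fell and 29 did not pass (12.1% called, where 9.65% of all genes were), and their median difference was 0.026. Only 8 of the 33 lay above the median level of all genes, and their median level was 5.40, against 6.07. RMA compresses differences of weak probe sets and no detection call was made, so not passing does not show that a target was unchanged. Msx1, a homeobox gene that also responds to BMP, rose by 0.81 (SE 0.09) from a mean of 6.14 with XAV939 to 6.95 with CHIR99021. Evx1, a homeobox gene of the posterior primitive streak, rose by 0.44 (SE 0.08). Pax6, a regulator of neural and eye development, fell by 0.60 (SE 0.05), and Wt1, a regulator of kidney and gonad development, fell by 0.55 (SE 0.07). Limma adjusted p values were 0.00477 or lower for these 4 genes. XAV939 replicate 1 was the highest of its group for 26 of the 33 targets, against 40.7% of all genes.

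The cells were kept on feeder cells, and of 23 measured fibroblast markers 7 rose, 1 fell and 15 did not pass (34.8% called, where 9.65% of all genes were). Their median difference was 0.061. Col1a1, Tagln and Pdgfrb rose by 1.05, 0.67 and 0.59, Col1a2, Col5a1, Twist2 and Acta2 by 0.35 to 0.40, and Mmp2 fell by 0.39. Among the 15 that did not pass, Col3a1 differed by 0.10, Dcn and Postn by 0.03, Thy1 by -0.08 and Twist1 by -0.19. Only 11 of the 23 lay above the median level of all genes. Dcn and Postn had low mean levels, 4.42 and 4.27, where a difference near 0 says little. The linear levels of the 23 markers summed to between 3438 and 3721 with CHIR99021 and between 2642 and 2717 with XAV939. Tagln, Acta2 and Col1a1, chosen for this after their values were seen, made up 90.2% of that difference, and the other 20 summed to between 1223 and 1256 with CHIR99021 and between 1112 and 1198 with XAV939.

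Of the 10 pluripotent cell markers, 2 rose, 4 fell and 4 did not pass by limma (60% called, where 9.65% of all genes were). An unadjusted p under 0.05 in limma was found for 8 (80%, where 20.6% of all genes had one). All 10 lay above the median level of all genes. Nanog and Zfp42 rose by 0.49 and 0.25, while Utf1, Tdgf1, Lin28a and Sall4 fell by 0.67, 0.63, 0.21 and 0.20. Sall4 lost its call on leaving out any array (limma adjusted p up to 0.169). Lin28a lost it on leaving out any array but XAV939 replicate 1 (up to 0.0842). Zfp42 lost it without CHIR99021 replicate 1 or 3 or XAV939 replicate 2 (up to 0.0782). The calls of Nanog, Utf1 and Tdgf1 were kept in each case. Sox2 and Dppa5a differed by 0.0057 and 0.06, and Pou5f1 and Dppa4 both by -0.19, without passing. The markers summed to between 20817 and 21234 with CHIR99021 and between 23358 and 24032 with XAV939. Without Tdgf1 and Utf1, likewise chosen after their values were seen, the other 8 summed to between 15870 and 16224 with CHIR99021 and between 15568 and 16081 with XAV939, which overlap. The count of 2 became 1 when replicate 1 or 3 of CHIR99021 or replicate 2 of XAV939 was set aside, and the count of 4 became 2 when replicate 1 or 2 of CHIR99021 or replicate 2 or 3 of XAV939 was set aside. No gene is listed at 0 on such arrays. The part of either marker list in the differences of the Polycomb genes was not tested, and a change in the share of a cell type and a change in RNA per cell cannot be told apart in bulk RNA.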

How the data were processed

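Total RNA (300 ng per array, labelled with Affymetrix whole-transcript kits, per the labels' protocols) was measured on 6 arrays. RMA, a method named in the submitters' processing notes, gave the deposited log2 values, 1 per probe set and array. Its version, and any genome build, is not given in the sources used here. It normalises arrays by quantiles and compresses differences of weak probe sets. Precision is limited by the number of arrays.

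Of 34760 probe sets, 21640 were annotated to 1 gene, 1321 to several and 11799 have no name here. The probe set with the highest mean represented each of 19937 genes, and 954 genes had more than 1. By Entrez identifier 21553 probe sets matched RefSeq.

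The deposited log2 values were fitted with limma 3.58.1 (lmFit, eBayes) in R 4.3.3, without filter or block, and adjusted by Benjamini-Hochberg over all genes. Residual degrees of freedom were 4. Levels are given as mean ± SD or per array (n = 3), and ± after a difference is the limma SE. Permutation tests used scipy 1.17.1. The fit was tested on simulated data, where a planted difference of 0.3 was called in 39.2% of 250 cases and 0.5 in 96%. Far fewer genes were given a difference there than the 1924 called in these data. The adjusted threshold was therefore stricter in the simulation, and these shares do not measure the sensitivity of the fit here. A gene that did not pass may still differ, within its 95% interval, which for Pcgf1 reached 0.51. Same-numbered arrays did not deviate together (correlations -0.14 to 0.06).

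Members, lists and pairs were chosen with earlier results of these data known. Named genes were all 32 measured members, with array values for those past the threshold or at an absolute difference of at least 0.3, and list genes past the threshold. Array values of other members, Kmt2c, Bap1 and the further promoters were chosen after values were seen. Alternatives covered scaling, probe set choice, filtering, variance models, array weights, the replicate block, a threshold of 0.01 and leaving out each array.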

Additional observations from a re-analysis of the deposited data

How the results depend on the processing

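The 4 Polycomb genes that fell stayed called in the alternatives they entered. The count of 2 that rose became 1 under the intensity trend, median centring, repeated quantile normalisation and the replicate block, and 0 with all probe sets tested or a threshold of 0.01 (0 to 2 on leaving out an array). Same-numbered arrays share only a number. In what follows, deubiquitinase genes and opposing enzymes name whole lists, which include cofactors and other subunits, such as Foxk1, Asxl1 and Ncoa6. With the replicate block the counts over all genes went from 1058 higher and 866 lower to 876 and 702, partners that fell from 2 to 1, deubiquitinase genes from 2 to 1, opposing enzymes that rose from 1 to 0 and pluripotent markers that fell from 4 to 2. Testing all probe sets gave 1 partner, 0 deubiquitinase genes and 1 opposing enzyme lower, 0 opposing enzymes higher, 1 pluripotent marker higher and 2 lower, and 0 fibroblast markers lower. With array weights 5 partners fell and 2 opposing enzymes rose, and under the intensity trend or median centring 0 of the latter rose. At a threshold of 0.01 the counts were 1 partner and 0 deubiquitinase genes lower, 0 opposing enzymes higher, and 1 pluripotent marker higher with 2 lower. Without genes below the 50th percentile, which drops Phf19, Pax6 and Evx1, 1 textbook target rose and 1 fell. Over all genes, testing all probe sets gave 698 higher and 609 lower, array weights 1448 and 1409, the stricter threshold 621 and 497, and leaving out an array 726 to 1130 higher and 528 to 1117 lower.

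On leaving out an array, lower partners numbered 1 to 4, deubiquitinase genes 0 to 2, higher opposing enzymes 0 to 1, and pluripotent markers 1 to 2 higher and 2 to 4 lower. Differences near 0 turned sign without passing in either case. Their ranges were -0.021 to 0.023 for Ezh1, -0.032 to 0.067 for Ezh2, -0.044 to 0.015 for Rbbp4, -0.072 to 0.053 for Ring1, -0.074 to 0.012 for Pcgf3, -0.16 to 6.0e-05 for Pcgf6 and -0.023 to 0.048 for Rybp. For pairs they were -0.074 to 0.017 (Ezh1 minus Ezh2), -0.18 to 0.023 (Ring1 minus Rnf2), -0.12 to 0.12 (Pcgf2 minus Bmi1) and -0.074 to 0.11 (Cbx7 minus Cbx2). With array weights Ring1 was at 0.019 and Rybp at -0.0078. The causes were not tested.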

Other observations

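The genes next to the called Polycomb genes were looked at after their values were seen, taking the 3 nearest tested genes on each side in RefSeq order. Of these 36 neighbours, 8 (22.2%) were called by limma, 3 higher and 5 lower, where 9.65% of all genes were called, 5.31% higher and 4.34% lower. The shares are not matched for level, and neighbours of the uncalled Polycomb genes were not taken for comparison. Next to Kdm2b, A930024E05Rik fell by 0.44 (SE 0.05, limma adjusted p = 3.78e-04), as Kdm2b did. The RefSeq starts of this pair lie 255 bases apart on opposite strands, so the Kdm2b promoter window printed above fills most of the gap between them. Camkk2, a kinase gene, and Orai1, a calcium channel gene, also lie beside Kdm2b and rose by 0.51 and 0.25.

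Phc1 lies in a stretch that leads to the pluripotency gene Nanog, with 6 tested genes between them. Of these, Rimklb, 2 places from Phc1, fell by 0.85 (SE 0.05, limma adjusted p = 5.85e-06), and Gdf3, a TGF-beta family ligand of pluripotent cells, fell by 0.30 (SE 0.05). The gene between Phc1 and Rimklb, 1700063H04Rik, differed by -0.07 ± 0.06 and did not pass. Nanog itself, at the far end, rose by 0.49 (SE 0.05). Of the other called Polycomb genes, Jarid2 had 1 called neighbour, Atxn1, which rose by 0.78, Rbbp7 had Txlng, which fell by 0.47, Yaf2 had Pphln1 and Prickle1, which fell by 0.27 and 0.19, and none of the 6 neighbours of Phf19 passed.

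The probe set annotated to Cbx6, Npcd and Nptxr differed by -0.10 ± 0.07 and did not pass (limma adjusted p = 0.635 over all probe sets). A further Phc3 probe set differed by 0.20 ± 0.10, a further Eed probe set by -0.02 ± 0.10 and a further Rybp probe set by 0.03 ± 0.05, none past the threshold.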
